A study of Mus musculus with 7 samples.

Results

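The nitric oxide and cyclic GMP pathway was followed through 9 of the 31253 genes counted in single cells of the mouse aorta: Nos3, Cav1, Gch1, Nosip, Ddah1, Ddah2, Arg2, Prkg1 and Pde5a. They were chosen by their place in the pathway, with earlier results of these data known, and none of them was used to assign cells to a class. In the artery wall, endothelial nitric oxide synthase in the lining cells makes nitric oxide from arginine, with tetrahydrobiopterin as cofactor. The gas diffuses into neighbouring smooth muscle, where soluble guanylate cyclase makes cyclic GMP, cyclic GMP-dependent protein kinase relaxes the cell, and phosphodiesterases end the signal. Caveolin-1 holds the synthase inactive in caveolae, the dimethylaminohydrolases break down methylarginines that inhibit it, and arginase uses the same arginine.

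There were 4 libraries of Slc38a2deltaEC aorta, called endothelial knockouts, and 3 libraries of Slc38a2flox/flox aorta, called flox controls. Slc38a2 encodes SNAT2, which carries small neutral amino acids into cells together with sodium. It is flanked by recombination sites in the floxed allele, and the promoter of the Cre is not given in the labels. All mice of both genotypes ate a high-salt diet for 3 weeks, so no group on normal salt enters the values. Cells were captured on the BD Rhapsody system, which counts transcripts by unique molecular identifiers (UMIs). Nothing in the labels says that libraries came from separate animals, so p-values measure only the spread between these libraries, which may be technical.

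After filtering, 67477 of 76359 barcodes remained, with 22646246 to 73102988 deposited UMIs per library and 56 to 171 barcodes shared between pairs of libraries. Marker genes assigned 91.7% to 96.9% of cells to a class in 6 libraries and 85.3% in flox control 1, which stood apart. There were 1383 endothelial cells, 17986 smooth muscle cells, 37677 fibroblasts and 4023 macrophages. Endothelial cells numbered 59, 206, 234 and 545 in knockout libraries 1 to 4, against 109, 172 and 58 in flox control libraries 1 to 3. The labels call the cells goblet cells, but 0 cells in any library carried 3 or more goblet markers. The deleted gene, Slc38a2, had 202, 276, 328 and 283 CPM (UMIs of a gene scaled to the same total of UMIs in every class and library) in endothelial cells of knockouts 1 to 4, against 483, 382 and 318 CPM in flox controls 1 to 3, so that the groups overlapped. Its log2 fold change was -0.45 (SE 0.23, adjusted p = 0.820) in endothelial cells, -0.09 (SE 0.19) in smooth muscle cells, -0.38 (SE 0.27) in fibroblasts and -0.43 (SE 0.20) in macrophages, none past the threshold. The estimates in fibroblasts and macrophages lay near the endothelial one, and that in smooth muscle cells was smaller. The effect in endothelial cells minus that in smooth muscle cells was -0.38 (SE 0.25, 95% interval -0.92 to 0.15) and did not pass. The deleted part of the gene is not given in the sources used here, and reads outside it may remain.

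Of the 9 genes, 7 had promoter entries in the RefSeq table of build GRCm38.p6. The 250 bases before the start site are shown for the 4 whose start site equals the GENCODE gene start and whose window overlaps no annotated exon. Each had its highest level, among the 4 main classes, in a different one: Cav1 in endothelial cells, Gch1 in macrophages, Ddah2 in fibroblasts and Prkg1 in smooth muscle cells. Sequences run 5′ to 3′ on the strand of the gene and end at the base before the start site. Capitals mark the GC box GGGCGG, the TATA motif TATAAA and the GATA motif AGATAA, on either strand.
Cav1, chr6:17306085-17306334, plus strand: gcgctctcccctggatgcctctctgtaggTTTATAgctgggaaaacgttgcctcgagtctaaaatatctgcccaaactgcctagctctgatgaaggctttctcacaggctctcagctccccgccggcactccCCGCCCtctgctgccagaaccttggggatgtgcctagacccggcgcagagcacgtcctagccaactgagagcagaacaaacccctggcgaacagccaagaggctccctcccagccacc
Gch1, chr14:47189414-47189663, minus strand: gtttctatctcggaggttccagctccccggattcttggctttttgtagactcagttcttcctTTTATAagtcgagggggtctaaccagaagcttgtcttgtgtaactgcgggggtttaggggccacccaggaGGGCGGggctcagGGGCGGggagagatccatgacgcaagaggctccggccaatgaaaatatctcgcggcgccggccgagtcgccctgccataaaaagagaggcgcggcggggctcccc
Ddah2, chr17:35058785-35059034, plus strand: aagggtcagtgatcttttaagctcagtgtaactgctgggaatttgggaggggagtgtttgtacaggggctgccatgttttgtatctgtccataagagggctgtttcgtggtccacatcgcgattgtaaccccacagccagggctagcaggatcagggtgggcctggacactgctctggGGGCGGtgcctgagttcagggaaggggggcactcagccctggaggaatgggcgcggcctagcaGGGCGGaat
Prkg1, chr19:31765034-31765283, minus strand: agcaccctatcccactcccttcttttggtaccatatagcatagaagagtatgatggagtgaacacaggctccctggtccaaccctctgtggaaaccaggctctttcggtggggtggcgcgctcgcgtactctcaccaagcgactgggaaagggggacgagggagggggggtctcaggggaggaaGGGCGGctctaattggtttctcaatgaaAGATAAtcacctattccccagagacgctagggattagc

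All 4 windows held a GC box, which 32.7% of the 32851 RefSeq promoter windows of this length also held. The GC box began 118 bases before the start site in Cav1 and 66 bases before it in Prkg1. Gch1 had 2 of them, at 118 and 105 bases, and Ddah2 had 2, at 72 and 9 bases. TATAAA was read in Cav1 at 221 bases and in Gch1 at 188 bases, in both on the opposite strand, and 12.4% of all windows held it. AGATAA was found only in Prkg1 among the 4, at 38 bases, with 9.99% of all windows holding it. The ETS motifs CCGGAA (12.0% of windows) and CAGGAA (25.7%) and the CArG box (1.47%) were not found in these letters. No hit overlapped another, and a match is a description of the sequence only.

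Nos3 (ENSMUSG00000028978, chr5:24364810-24384474, GRCm38), the endothelial synthase itself, was, of the 4 main classes, read almost entirely in endothelial cells. Endothelial cells had 315, 399, 331 and 355 CPM in knockouts 1 to 4, from 67, 323, 380 and 670 UMIs, and 291, 397 and 318 CPM in flox controls 1 to 3, from 108, 258 and 66 UMIs. All 7 libraries thus lay within 291 to 399 CPM, whatever the genotype, with a mean of 344 ± 41.8 CPM (SD, n = 7). The means were 1.71 ± 1.51 CPM in smooth muscle cells, 0.881 ± 0.494 CPM in fibroblasts and 0.857 ± 0.702 CPM in macrophages (SD, n = 7 each), and none of these ranges reached the endothelial one. With each cell thinned to 1000 UMIs, 29.6% of 1169 endothelial cells had a Nos3 UMI (55.0% before thinning, with 214 cells too shallow), against 0.158% of smooth muscle cells, 0.117% of fibroblasts and 0.0528% of macrophages.

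Set against smooth muscle cells of the same libraries, endothelial cells had more Nos3 by 7.83 (log2 fold change, SE 0.18, adjusted p = 6.1e-14 by edgeR's quasi-likelihood test with library as a block and Benjamini-Hochberg adjustment over all genes). The differences were 8.49 from fibroblasts and 8.26 from macrophages, both past the threshold of 0.05. Against smooth muscle cells and macrophages Nos3 passed the filter on low counts only through endothelial cells. Against fibroblasts, where Nos3 had 0.559 to 1.97 CPM, it passed mainly through endothelial cells. All these differences are therefore a description. The small Nos3 level in the other classes is given beside those of the 8 endothelial marker genes. Markers were used to place the cells, which by itself lowers them outside their own class. Comparisons with markers, here and below, are therefore a description. As a share of its endothelial level in the same library, Nos3 had a median of 0.321% in smooth muscle cells. This lay above 7 of the 8 markers there, whose medians ran from 0.0510% to 0.169%, and below Pecam1 at 1.01%. In knockout 4 it stood at 1.44%, above all 8 markers. In fibroblasts it had 0.195%, above 4 of the 8 markers (0.0735% to 1.74%), and in macrophages 0.182%, also above 4 of them (0.0633% to 0.515%). Smooth muscle cells exceeded fibroblasts by 0.92 (log2 fold change, SE 0.20, adjusted p = 0.0017), and the part of RNA from endothelial cells in these levels was not tested. Among the small classes, 73 lymphatic endothelial cells pooled over libraries had 25 Nos3 UMIs, or 68.2 CPM (95% exact Poisson interval 44.1 to 101 CPM, counting error only). In 32 adipocytes 22 UMIs gave 51.5 CPM (interval 32.3 to 78.0), and erythroid cells had 24.2 ± 41.5 CPM (SD, n = 6 libraries), with up to 106 CPM in 1 of them.

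**Figure D1:**
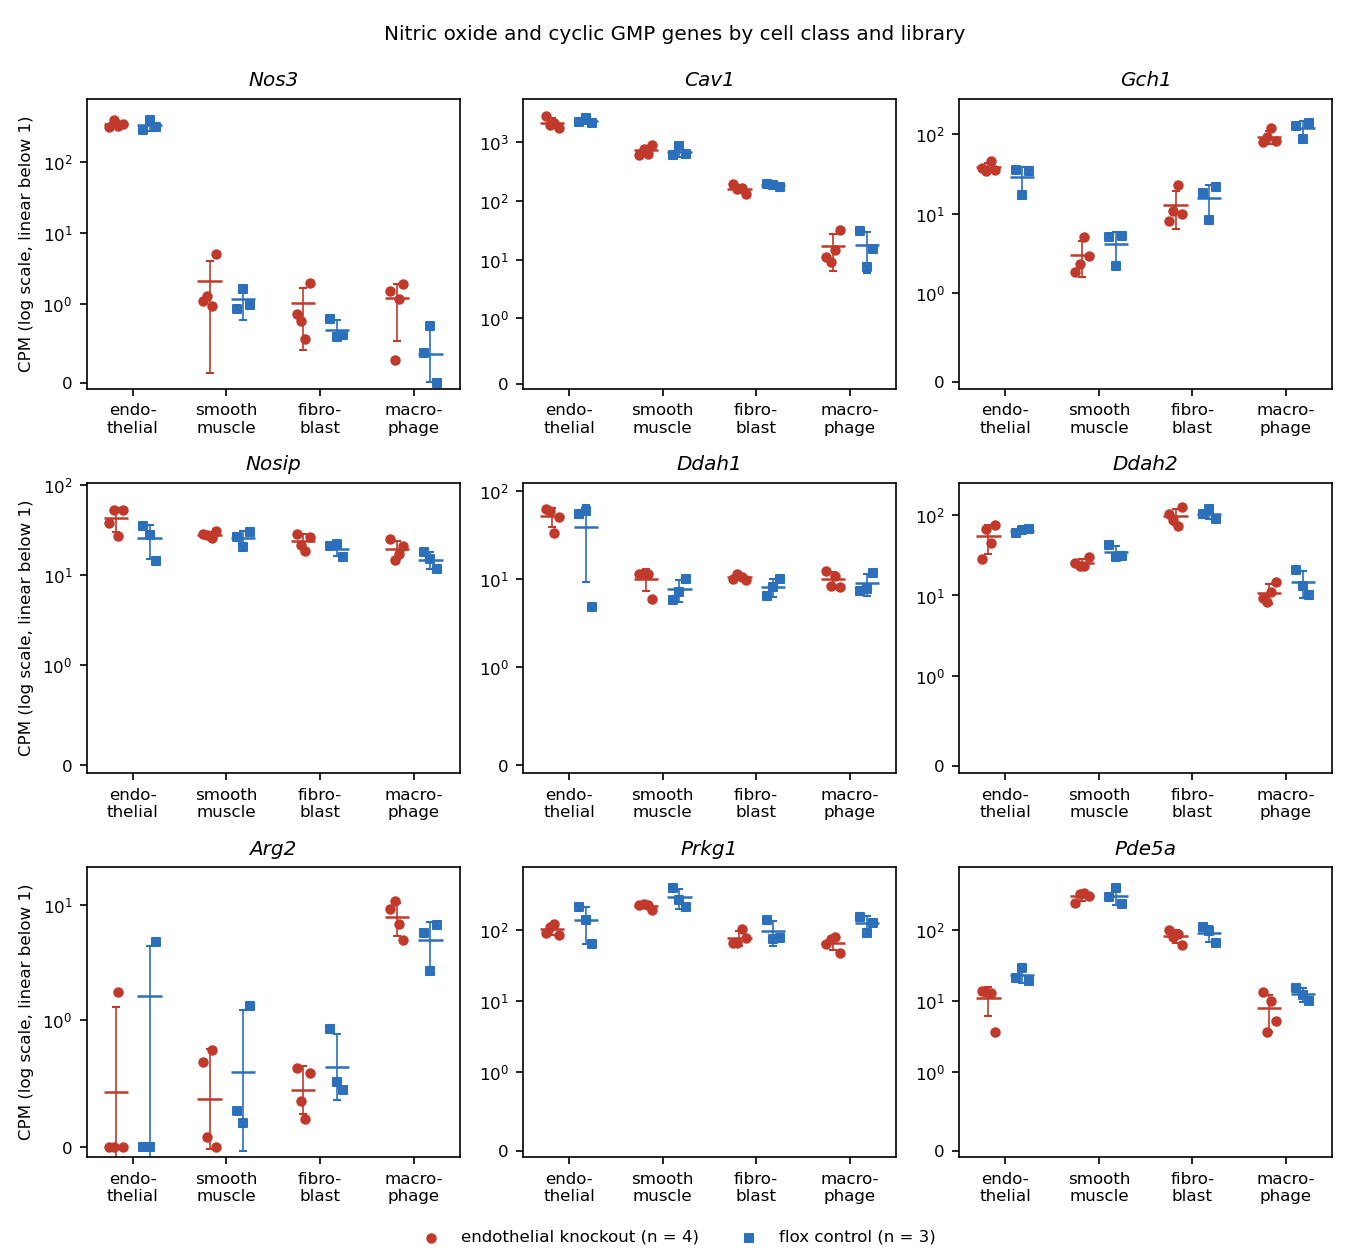
Level of each of the 9 genes in CPM (log axis, linear below 1) in the 4 main cell classes. Each point is a library, endothelial knockouts as red circles left of flox controls as blue squares, with lines at the mean and bars of 1 SD. Nos3 lies between 291 and 399 CPM in endothelial cells and at or below 5.10 CPM elsewhere, while Prkg1 and Ddah1 are read in all 4 classes.

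Cav1 (ENSMUSG00000007655, chr6:17306335-17341452), caveolin-1, the coat protein of caveolae, followed Nos3 in its order but not in its restriction. It averaged 2214 ± 352 CPM in endothelial cells, 709 ± 127 CPM in smooth muscle cells, 171 ± 23.0 CPM in fibroblasts and 17.1 ± 9.91 CPM in macrophages (SD, n = 7 each), and the ranges of these 4 classes did not overlap. Endothelial knockouts 1 to 4 had 2751, 1955, 2108 and 1744 CPM, against 2212, 2599 and 2127 CPM in flox controls 1 to 3. The highest and the lowest libraries were both knockouts. Endothelial cells exceeded smooth muscle cells by 1.40 (SE 0.12, adjusted p = 6.8e-08), fibroblasts by 3.50 (SE 0.11, adjusted p = 1.9e-13) and macrophages by 6.91 (SE 0.31, adjusted p = 3.8e-10) on the log2 scale. The level in smooth muscle cells was 29.3% of the endothelial one and that in fibroblasts 7.92% (medians of 7 libraries), above every endothelial marker in those classes. Lymphatic endothelial cells had 1108 CPM of Cav1 (95% interval 1003 to 1221 CPM).

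Gch1 (ENSMUSG00000037580, chr14:47153895-47189413), GTP cyclohydrolase, the first enzyme of tetrahydrobiopterin synthesis, was lower in the endothelium than in macrophages. It averaged 34.1 ± 8.51 CPM in endothelial cells, 3.52 ± 1.54 CPM in smooth muscle cells, 14.1 ± 6.26 CPM in fibroblasts and 103 ± 24.0 CPM in macrophages (SD, n = 7 each). Endothelial cells were lower than macrophages (log2 fold change -1.77, SE 0.16, adjusted p = 4.1e-07) and exceeded fibroblasts by 1.18 (SE 0.19, adjusted p = 7.2e-05) and smooth muscle cells by 3.06 (SE 0.23, adjusted p = 1.6e-08). Against smooth muscle cells Gch1 passed the filter on low counts only through endothelial cells, so that value is a description. Its level in endothelial cells was 37.6% of that in macrophages, while the 8 macrophage markers stood at 0% to 0.956% there. Of the classes with enough cells for means over libraries, 2 classes of leukocytes had the highest. These were mast cells with 255 ± 73.5 CPM and T cells with 154 ± 53.4 CPM (SD, n = 5 libraries with at least 20 cells each), whose ranges overlapped. Pooled neutrophils had 196 CPM (interval 155 to 243) and monocytes 189 CPM (158 to 226). Pooled in the same way, mast cells had 219 CPM (192 to 250) and T cells 140 CPM (114 to 170).

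Nosip (ENSMUSG00000003421, chr7:45062429-45078210), which encodes a protein that binds the synthase and moves it from the membrane, was read in all 4 main classes. It averaged 35.4 ± 14.1 CPM in endothelial cells, 27.2 ± 3.46 CPM in smooth muscle cells, 22.2 ± 4.44 CPM in fibroblasts and 17.5 ± 4.40 CPM in macrophages (SD, n = 7 each), with neighbours in this order overlapping. The endothelial level was higher than in macrophages by 0.86 (SE 0.18, adjusted p = 0.00097) and than in fibroblasts by 0.58 (SE 0.17, adjusted p = 0.0080) on the log2 scale. Without knockout 2 the difference from fibroblasts was 0.45 and no longer passed (adjusted p = 0.0595). From smooth muscle cells the difference was 0.22 (95% interval -0.15 to 0.58, adjusted p = 0.286).

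The 2 dimethylaminohydrolases, which degrade the methylarginine inhibitors of nitric oxide synthase, had different orders over the classes. Ddah1 (ENSMUSG00000028194, chr3:145758675-145894277) averaged 45.9 ± 20.4 CPM in endothelial cells, with 61.1, 59.3, 33.1 and 50.3 CPM in knockouts 1 to 4 and 53.9, 58.5 and 4.81 CPM in flox controls 1 to 3. The low value of flox control 3 rests on 1 UMI, and the other 6 libraries lay above 33. In smooth muscle cells, fibroblasts and macrophages the means were 8.98, 9.37 and 9.42 CPM and could not be separated from each other by their ranges. Endothelial cells exceeded these classes by 2.12, 2.15 and 2.19 on the log2 scale, all past the threshold, and smooth muscle cells differed from fibroblasts by 0.12 (95% interval -0.09 to 0.33, adjusted p = 0.268).

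Ddah2 (ENSMUSG00000007039, chr17:35059035-35062095) was, of the 4 main classes, highest in fibroblasts. It averaged 58.1 ± 16.1 CPM in endothelial cells, 29.2 ± 6.62 CPM in smooth muscle cells, 98.9 ± 18.3 CPM in fibroblasts and 12.5 ± 4.24 CPM in macrophages (SD, n = 7 each). Endothelial cells were lower than fibroblasts (log2 fold change -0.90, SE 0.14, adjusted p = 3.0e-05) and higher than smooth muscle cells (0.82, SE 0.15, adjusted p = 0.00022) and macrophages (2.01, SE 0.18, adjusted p = 2.9e-07). Its endothelial level was 60.4% of the fibroblast level, while the 8 fibroblast markers stood at 1.45% to 3.76% in endothelial cells. In smooth muscle cells Ddah2 stood at 27.0% of the fibroblast level, just above the highest fibroblast marker there, Col3a1 at 26.1%. The collagen genes Col1a2 and Col1a1 followed at 17.6% and 13.3%, and the 8 markers had a median of 2.00%. In 72 Schwann cells, the glia of perivascular nerves, 17 UMIs gave 102 CPM (interval 59.4 to 163).

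Arg2 (ENSMUSG00000021125, chr12:79130777-79156301), the mitochondrial arginase, was low in the main classes of the vessel wall and abundant in neutrophils. In endothelial cells there were 2 UMIs in knockout 3, 1 in flox control 3 and 0 in the other 5 libraries. The mean was 0.471 ± 0.469 CPM in smooth muscle cells and 0.525 ± 0.223 CPM in fibroblasts (SD, n = 7 each), and macrophages had 2.65 to 10.8 CPM. Arg2 was not tested in any contrast between classes, since its counts missed the filter. The 222 neutrophils held 356 Arg2 UMIs, or 860 CPM (95% exact Poisson interval 773 to 954 CPM). By library they had 880, 808, 568 and 684 CPM in knockouts 1 to 4, from 128, 18, 12 and 32 cells, and 1006, 1201 and 836 CPM in flox controls 1 to 3, from 13, 13 and 6 cells. Arg2 was thus read in neutrophils of all 7 libraries, in 1 of them from 6 UMIs. The 136 monocytes held 170 UMIs, or 258 CPM (220 to 299 CPM), of which 113 came from knockout 1.

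**Figure D2:**
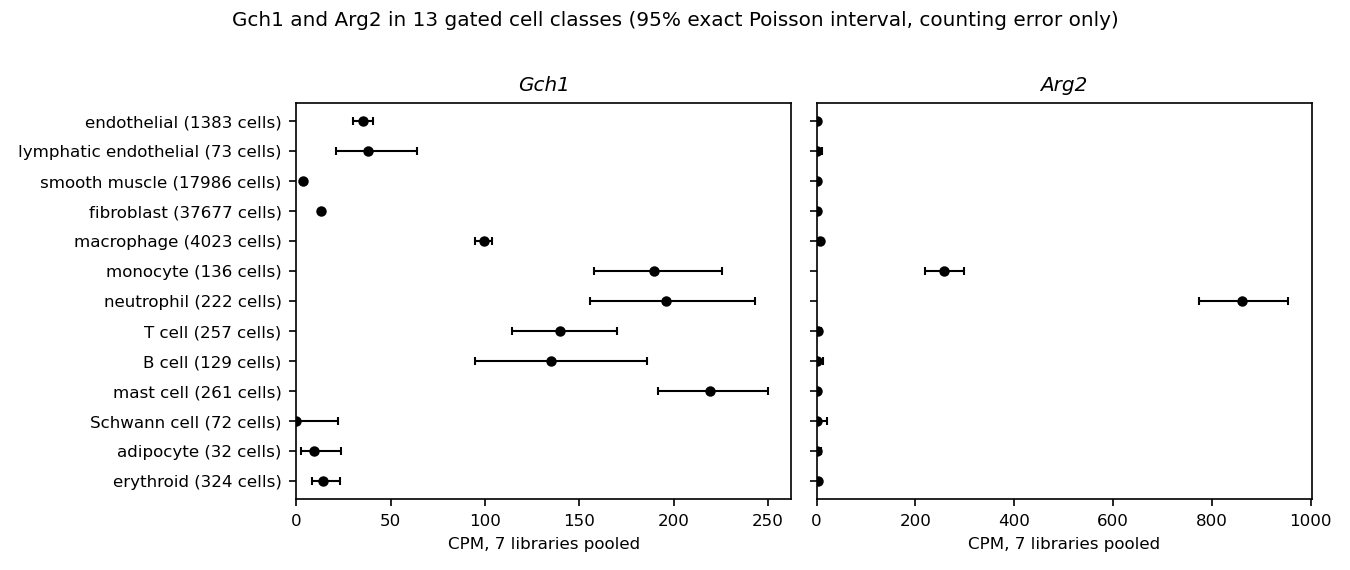
Pooled level of Gch1 and Arg2 in the 13 gated cell classes, in CPM over the 7 libraries together, with 95% exact Poisson intervals that cover counting error only. Arg2 stands at 860 CPM in neutrophils and 258 CPM in monocytes and at 6.49 CPM or less elsewhere, and Gch1 is highest in mast cells, neutrophils and monocytes.

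Prkg1 (ENSMUSG00000052920, chr19:30564489-31765033, a gene of 1200.5 kb), cyclic GMP-dependent protein kinase I, the effector of cyclic GMP, was highest in smooth muscle cells among the 4 main classes but read in all of them. It averaged 117 ± 49.1 CPM in endothelial cells, 247 ± 64.3 CPM in smooth muscle cells, 86.0 ± 26.9 CPM in fibroblasts and 90.8 ± 37.1 CPM in macrophages (SD, n = 7 each). Flox control 1 was the highest library in all 4 classes, at 213, 384, 140 and 153 CPM in that order. Endothelial cells were lower than smooth muscle cells (log2 fold change -1.31, SE 0.12, adjusted p = 1.2e-07), and smooth muscle cells were higher than fibroblasts (1.67, SE 0.11, adjusted p = 2.1e-07). Endothelial cells differed from fibroblasts by 0.26 (95% interval -0.01 to 0.54, adjusted p = 0.0988) and from macrophages by 0.24 (-0.13 to 0.61, adjusted p = 0.237). Without flox control 3, which has 13 endothelial Prkg1 UMIs, these differences were 0.35 (adjusted p = 0.0226) and 0.41 (adjusted p = 0.0058).

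As shares of its smooth muscle level, Prkg1 stood at 47.4% in endothelial cells, 36.4% in fibroblasts and 34.5% in macrophages (medians of 7 libraries). The 8 smooth muscle markers stood at no more than 4.74%, 6.78% and 1.84% in those classes. Pooled Schwann cells had 300 CPM of Prkg1 (222 to 395) and lymphatic endothelial cells 199 CPM (156 to 250), against 12.1 CPM in monocytes (5.23 to 23.9). Cells that the markers could not place are given for comparison. They had 454, 436, 825 and 104 CPM in knockouts 1 to 4 and 917, 653 and 270 CPM in flox controls 1 to 3, their median UMI count per cell being 620 to 1715. The part that such cells, or RNA from other cells, play in the level of a named class was not tested.

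Pde5a (ENSMUSG00000053965, chr3:122728947-122859374), the cyclic GMP-specific phosphodiesterase that is the target of sildenafil, was highest in smooth muscle cells among the 4 main classes. It averaged 16.4 ± 8.01 CPM in endothelial cells, 305 ± 53.6 CPM in smooth muscle cells, 87.0 ± 17.9 CPM in fibroblasts and 9.96 ± 4.19 CPM in macrophages (SD, n = 7 each). Smooth muscle cells exceeded fibroblasts by 1.95 (log2 fold change, SE 0.11, adjusted p = 6.1e-08). Endothelial cells were lower than smooth muscle cells (log2 fold change -4.75, SE 0.23, adjusted p = 9.2e-11) and than fibroblasts (-2.78, SE 0.20, adjusted p = 3.8e-09). From macrophages they differed by 0.47 (95% interval -0.10 to 1.05, adjusted p = 0.128), and without knockout 4 by 0.66 (adjusted p = 0.0396). The fibroblast level was 26.4% of the smooth muscle level, where smooth muscle markers stood at 0.786% to 6.78%. The endothelial level was 5.72% (median of 7 libraries, range 1.22% to 8.19%), close to the highest marker there, at 4.74%. In knockout 4 it stood at 1.22%, above 3 of the 8 markers.

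**Figure D3:**
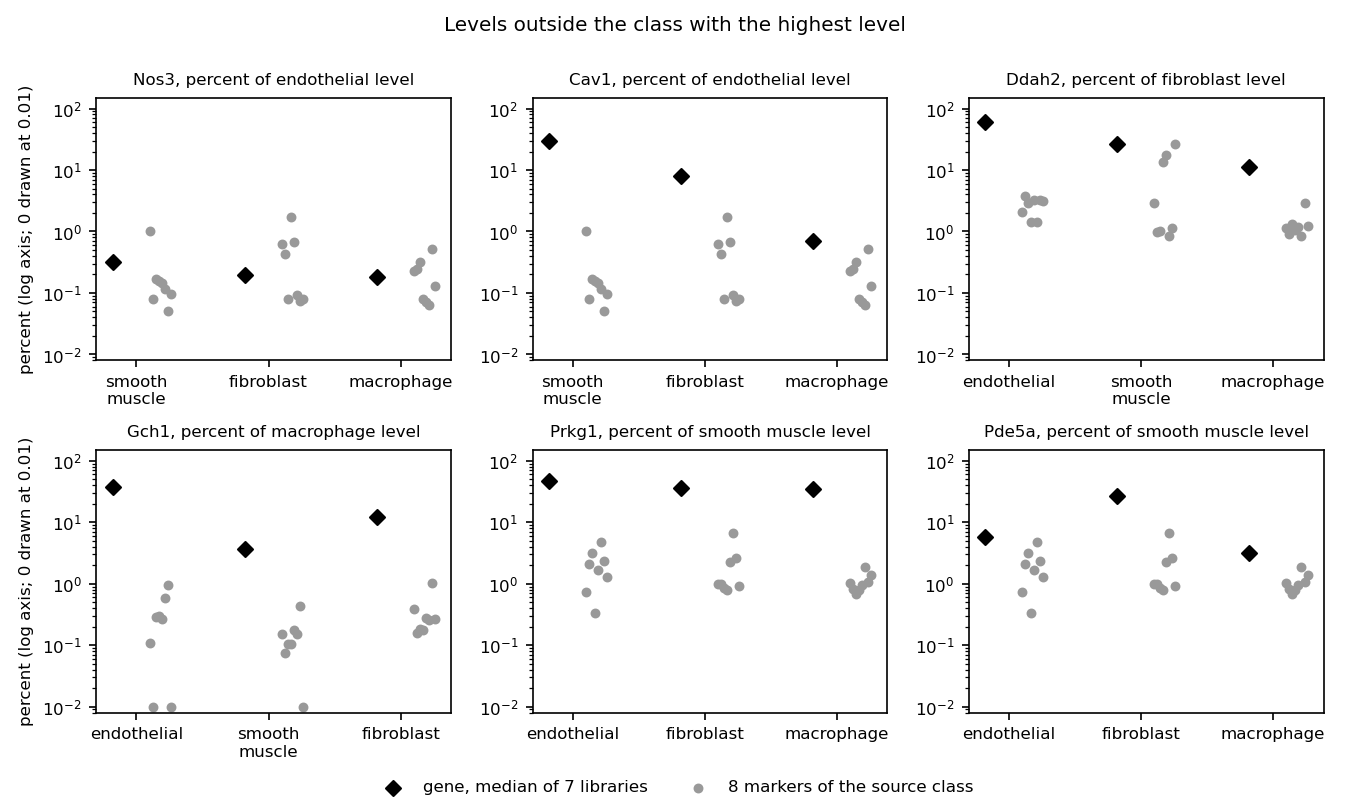
Level of 6 genes outside the main class where each was highest, as a percent of that class (black diamonds, medians of 7 libraries; log axis), beside the 8 marker genes of that class (grey dots). Nos3 lies above 7 of the 8 endothelial markers in smooth muscle cells and above 4 of them in fibroblasts and in macrophages, while Prkg1 at 34.5% to 47.4% lies above every smooth muscle marker. The markers were used to place the cells, which by itself lowers them outside their own class.

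Counted together, 8 of the 9 genes could be tested between classes. Nos3 and Gch1 passed the filter on low counts only through endothelial cells against smooth muscle cells, as Nos3 did against macrophages. Against fibroblasts Nos3 passed it mainly through endothelial cells. The counts and medians are therefore a description of the genes that passed. Endothelial cells were higher than smooth muscle cells for 5 of them (Nos3, Cav1, Gch1, Ddah1 and Ddah2) and lower for 2 (Prkg1 and Pde5a). Over all 9716 genes tested in that contrast, 59.6% passed in either direction, so a count of 7 of 8 is read against that share. Endothelial cells against fibroblasts gave 5 higher and 2 lower (52% of all genes passed), endothelial cells against macrophages 5 higher and 1 lower (68.1%), and smooth muscle cells against fibroblasts 5 higher and 2 lower (78.9%). The median log2 fold changes of the members were 1.11, 0.88, 1.44 and 0.68, against -0.02, -0.03, 0.03 and -0.01 over all genes tested.

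**Figure D4:**
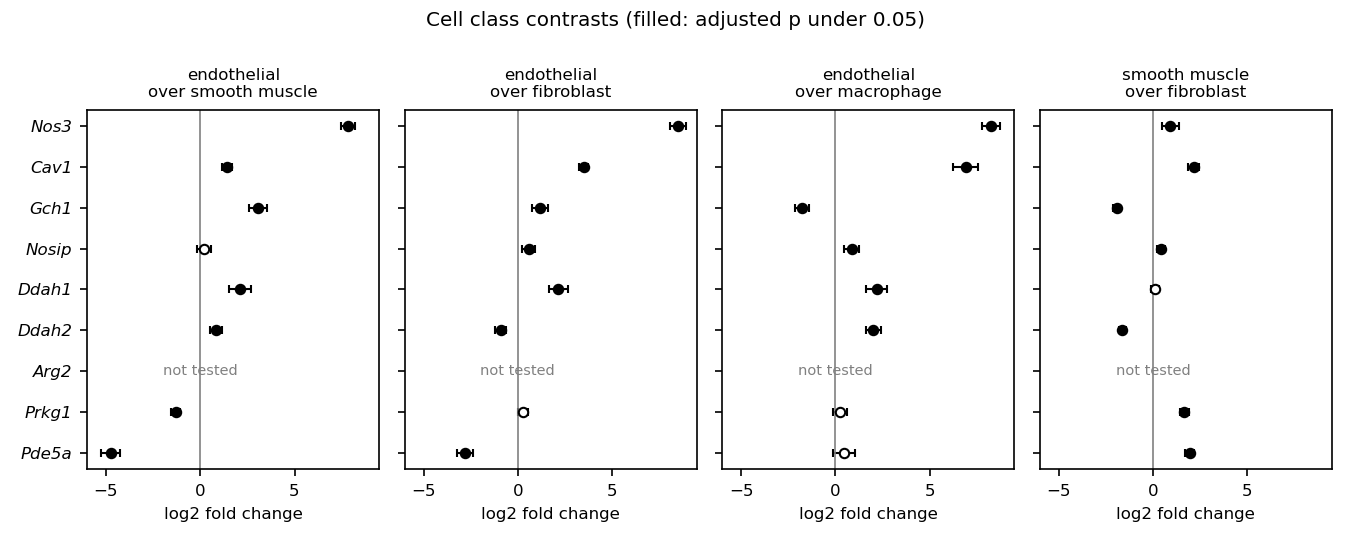
Log2 fold changes of the 9 genes between cell classes, with 95% intervals from edgeR and library as a block. Filled points have an adjusted p under 0.05, and Arg2 was not tested. Nos3 differs by 7.83 to 8.49 between endothelial cells and the other 3 classes, and Pde5a by -4.75 between endothelial and smooth muscle cells.

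Between genotypes no member passed the test in any of the 4 main classes. In endothelial cells the 8 tested members had 4 positive and 4 negative log2 fold changes, with a median of 0.04 against -0.01 over all genes. The edgeR test called 0 of 7771 genes (0%), with 428 (5.51%) at an unadjusted p under 0.05, of the 8 members only Pde5a, and DESeq2 also called 0. Nos3 differed by 0.12 (SE 0.20, 95% interval -0.32 to 0.56, adjusted p = 0.945) and Cav1 by -0.07 (SE 0.21, 95% interval -0.52 to 0.38, adjusted p = 0.974). For Nos3 and Cav1 a change of 1 log2 unit in either direction lies outside these intervals. Gch1 had 37.6, 34.6, 45.3 and 35.5 CPM in endothelial cells of knockouts 1 to 4, against 35.1, 16.9 and 33.7 CPM in flox controls 1 to 3, and its log2 fold change was 0.62 (SE 0.33, adjusted p = 0.820). Nosip had 0.77 (SE 0.36, adjusted p = 0.820), Ddah1 0.22 (SE 0.40), Ddah2 -0.04 (SE 0.31) and Prkg1 -0.39 (SE 0.29), none of them past the threshold. Without flox control 1 the value of Prkg1 was 0.01.

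Of the 8 members tested in endothelial cells, 7 overlapped between genotypes and Pde5a did not, and over all genes tested there 7.18% did not overlap. Pde5a passed the filter on low counts, which lay at 15.4 CPM in these cells, only through the flox controls. Since 3 of 3 flox controls and 0 of 4 knockouts reached 15.4 CPM, a gene that entered in this way could not overlap, and its values are a description. It had 14.1, 13.6, 13.1 and 3.71 CPM in knockouts 1 to 4, from 3, 11, 15 and 7 UMIs, against 21.6, 29.2 and 19.3 CPM in flox controls 1 to 3, from 8, 19 and 4 UMIs. Every knockout library lay below every flox control, on counts of at most 19. The log2 fold change was -1.23 (SE 0.47) and did not pass the edgeR test over all genes (adjusted p = 0.820). The summed level of the 8 smooth muscle markers in the same endothelial cells was 301 to 807 CPM in knockouts and 534 to 1073 CPM in flox controls, with 4 to 8 and 6 to 7 of the markers detected, and its part in the Pde5a values was not tested. In smooth muscle cells, where Pde5a is highest, it had 247, 323, 338 and 303 CPM in knockouts, against 296, 391 and 235 CPM in flox controls, a log2 fold change of 0.06 (SE 0.17, adjusted p = 0.993). In the test of the interaction, the genotype effect on Pde5a in endothelial cells minus that in smooth muscle cells was -1.31 (SE 0.43) and did not pass (adjusted p = 1). It rests on the same endothelial values. Over the 10875 genes tested there, 0 (0%) passed and 2.96% had an unadjusted p under 0.05, of the 8 members only Pde5a.

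In smooth muscle cells 0 of 12608 genes (0%) passed with edgeR, 587 (4.66%) had an unadjusted p under 0.05, among them 2 of the 8 members tested, and DESeq2 called 9, none of them a member. The groups overlapped for all 8 members, while 5.46% of all genes did not overlap. Ddah1 had a log2 fold change of 0.60 (SE 0.25) and Ddah2 of -0.39 (SE 0.14), both with an adjusted p of 0.936. Ddah1 had 11.3, 11.6, 11.4 and 5.83 CPM in knockouts 1 to 4, against 5.78, 7.10 and 9.83 CPM in flox controls 1 to 3. Knockout 4, with 326 smooth muscle cells and 8 Ddah1 UMIs, lay among the controls. In fibroblasts 0 of 15621 genes (0%) passed with edgeR, with 720 (4.61%) at an unadjusted p under 0.05 and 5 called by DESeq2, in both cases 0 of the 9 members. The groups overlapped for all 9, while 5.61% of all genes did not overlap. The members' log2 fold changes there ran from -0.50 for Arg2 to 0.64 for Nos3.

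In macrophages 0 of 10320 genes (0%) passed with edgeR, with 718 (6.96%) at an unadjusted p under 0.05, among them 1 of the 8 members tested, and 2 called by DESeq2. Prkg1 had 63.5, 74.2, 78.4 and 47.8 CPM in macrophages of knockouts 1 to 4, from 124, 261, 332 and 126 UMIs, against 153, 91.2 and 127 CPM in flox controls 1 to 3, from 403, 379 and 76 UMIs. The groups did not overlap, as held for 8.76% of all genes tested in macrophages. The log2 fold change was -0.90 (SE 0.24, adjusted p = 0.690), and without flox control 1 it was -0.74. Smooth muscle markers summed to 101 to 379 CPM in macrophages of knockouts and to 159 to 921 CPM in those of flox controls, with 7 or 8 and 8 of 8 markers detected, and their part in the Prkg1 values was not tested. Arg2 had 9.22, 10.8, 6.85 and 4.93 CPM in macrophages of knockouts, against 5.71, 2.65 and 6.67 CPM in those of flox controls, a log2 fold change of 0.88 (SE 0.44, adjusted p = 0.700). The 6 neutrophil markers summed to 87.0 to 291 CPM in these macrophages of knockouts and to 73.3 to 174 CPM in those of flox controls, and their part in the Arg2 values was not tested.

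**Figure D5:**
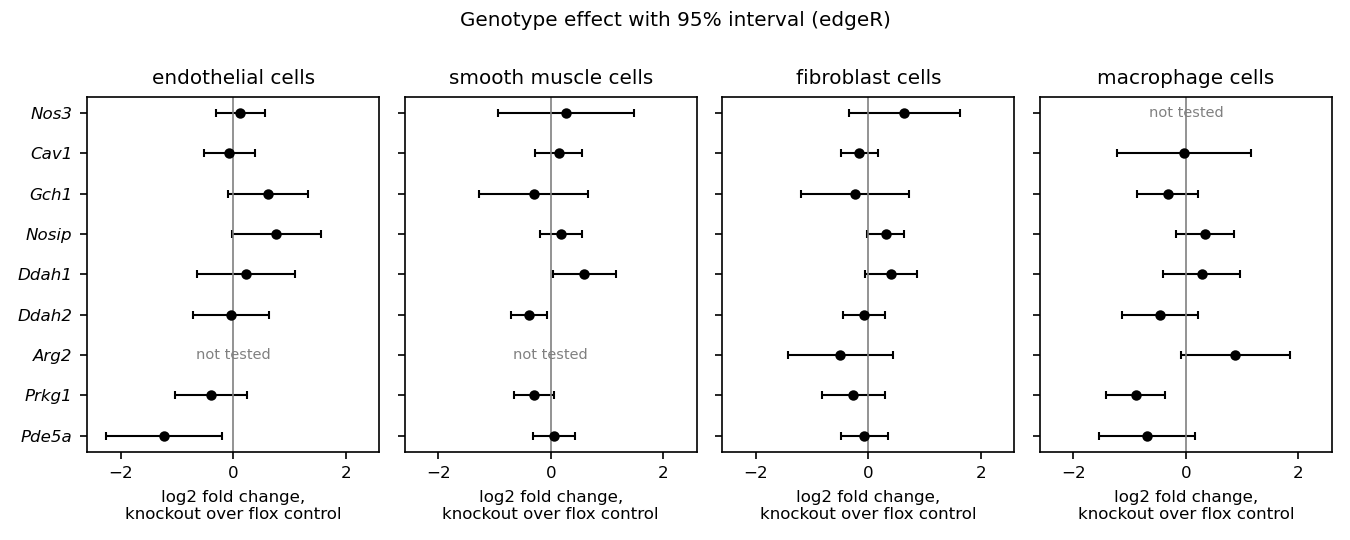
Log2 fold change of each gene, endothelial knockout over flox control, in the 4 main cell classes, with 95% intervals from edgeR. No gene passed the adjusted threshold in any class, and the interval of Nos3 in endothelial cells runs from -0.32 to 0.56.

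A further 45 genes of the pathway were listed by role. Through which class each of them passed the filter on low counts was not checked. Their counts and log2 fold changes are therefore a description of the genes that passed. In smooth muscle cells Ass1 had at most 4.37 CPM in any library and Abcc4 at most 3.82 CPM. In macrophages Ass1 had at most 5.31 CPM. In endothelial cells against smooth muscle cells 31 could be tested, of which 6 were higher and 15 lower (29% and 30.5% of all genes). Ass1, which encodes argininosuccinate synthase, an enzyme that recycles citrulline to arginine, stood at 69.3 ± 25.9 CPM in endothelial cells, against 1.65 ± 1.24 CPM in smooth muscle cells (SD, n = 7 each; log2 fold change 5.38, SE 0.20). Cav2, the partner of caveolin-1 (1.44), Pde3b (3.09) and the nucleotide exporter Abcc4 (3.79) were also higher. Among the lower ones was Gucy1b1, a subunit of soluble guanylate cyclase (-4.70). Mrvi1 (-6.22), Kcnmb1 (-6.77) and Ppp1r12a (-2.63), listed in the role of the kinase and its substrates, were also lower. Gucy1b1 stood at 13.6 ± 7.32 CPM in endothelial cells and 222 ± 35.5 CPM in smooth muscle cells (SD, n = 7 each).

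Against fibroblasts, 17 of 37 tested genes were higher in endothelial cells and 11 lower (23.2% and 28.8% of all genes). The higher ones included Cav2 (3.68), Ass1 (2.48), Pde3a, a phosphodiesterase that cyclic GMP inhibits (2.63), and the natriuretic peptide receptor Npr1 (1.52). The lower ones included Pde1a (-2.85), Pcbd1, which regenerates the pterin cofactor (-5.30, with 1 UMI in endothelial cells), Kcnma1 (-1.47) and Npr2 (-0.79). Against macrophages, 11 of 28 were higher, among them Cavin1 (4.02), Cav2 (3.62), Ass1 (4.91) and Pde3a (4.92), and 11 lower, among them Rgs2 (-3.53), Hsp90aa1 (-1.60), Pde1b (-1.33) and Mrvi1 (-2.02); 34% and 34.1% of all genes passed in those directions. In smooth muscle cells against fibroblasts 24 of 40 were higher (39.3% of all genes), among them Cav2 (2.32), Ppp1r12a (2.98), Vasp (2.46) and Pde3a (2.51). A further 12 were lower (39.5% of all genes), among them Abcc4 (-2.48), Pde3b (-2.38), Ass1 (-2.96) and Nostrin, a synthase-trafficking gene (-4.75). None of these other genes passed between genotypes, with 26, 39, 41 and 26 tested in endothelial cells, smooth muscle cells, fibroblasts and macrophages.

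Genes were compared with Nos3 by Pearson's r of log2 CPM over the 28 sums of 4 classes in 7 libraries. Of the 6395 genes compared, those that followed Nos3 most closely were Pecam1 (0.98), Adipor1 (0.97), Fam3c (0.96), Mrtfb (0.96) and Nuak1 (0.95). Genes averaging below 4 log2 CPM were left out of the comparison, whereas Nos3 itself averaged 2.18. Genes with an average as low as that of Nos3 were therefore not ranked. Pecam1 is one of the markers that defined the endothelial class. Prkg1 was followed by Micall1 (0.95), Slmap (0.93), Ctnna3 (0.93), Inpp5a (0.92) and Acta2 (0.92), and Pde5a by Trabd2b (0.97), Nexn (0.96), Ppp1r12b (0.96), Map1b (0.96) and Kank2 (0.95). Sums of one library share its depth, and the values are a description.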

How the data were processed

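The authors deposited 7 matrices of whole-number UMI counts, 1 per library, that were not normalized. The submitters' processing notes name STARsolo 2.7.10a, CASAVA 1.8, Seurat and build mm10, without their roles. The smallest barcode held 500 UMIs. Cells with fewer than 200 genes or more than 25% mitochondrial UMIs were removed, as were doublets called by Scrublet in scanpy 1.11.5 (expected rate 0.06), 0.869% to 2.07% of cells. A cell was assigned to the class with the largest share of its markers detected, with at least 3 markers and no tie, and endothelial cells with 3 lymphatic markers were set apart; this rule was chosen with the data in view. The leading genes of each main class included its own markers. Those markers placed the cells, so this is no check of the classes.

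Counts were summed per library and class and tested with edgeR 4.0.16 (TMM, filterByExpr, quasi-likelihood test, R 4.3.3), Benjamini-Hochberg adjusted over all genes, in classes with at least 20 cells in a library. Log2 fold changes use TMM factors, and CPM values do not. Contrasts between classes carried the library as a block, and the interaction of class and genotype used the endothelial and smooth muscle sums. The tests were tried on simulated counts with the same relative spread set for every gene. That trial is no measure of their power on these data. Alternatives were the size factors and the test of DESeq2 1.42.0, no filter, 4 markers, doublets kept, a block on replicate numbers and leaving out each library. Genes of the pathway, members and others, were chosen with earlier results of these data known. Up to 4 other pathway genes per direction were named in each contrast by the smallest p, and all members in any case. The 5 genes most alike had a mean of at least 4 log2 CPM. Coordinates come from GENCODE vM21 (GRCm38, the assembly that mm10 names), and promoters from RefSeq. Intervals and the limit of 3 counts cover counting error only.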

Additional observations from a re-analysis of the deposited data

Results flagged for a closer look

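Among 36 groups of 4 knockout libraries (9 genes in 4 classes), 4 held a library far from the other 3 by Dixon's ratio. Chance alone marks about 1 group in 20 of normally distributed values, which sparse counts need not follow. Nos3 in smooth muscle cells of knockout 4 stood at 5.10 CPM from 7 UMIs, above the 0.974 to 1.28 CPM of the other knockouts. Ddah1 in smooth muscle cells of knockout 4 stood at 5.83 CPM from 8 UMIs, below the 11.3 to 11.6 CPM of the others. Pde5a in endothelial cells of knockout 4 stood at 3.71 CPM from 7 UMIs, below the 13.1 to 14.1 CPM of the others. Arg2 in endothelial cells of knockout 3 stood at 1.74 CPM from 2 UMIs, where the other knockouts had 0. With 0 in all the others the ratio is 1 for any count, so this flag carries no weight. Knockout 4 was the library with the fewest smooth muscle cells, 326, and the most endothelial cells, 545.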

How the results depend on the processing

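No member was called between genotypes under any alternative that was run, and every member called between classes kept its direction. The count of genes called between genotypes, 0 in each class and in the interaction, moved to 54 in endothelial cells, 7 in smooth muscle cells, 13 in macrophages and 9 in the interaction with no filter on low counts. With DESeq2's test it moved to 9 in smooth muscle cells, 5 in fibroblasts and 2 in macrophages. Leaving out single libraries gave 0 to 2 in smooth muscle cells (2 without knockout 4), 0 to 5 in fibroblasts (5 without knockout 4) and 0 to 2 in macrophages (1 without knockout 4, 2 without flox control 3). The cause was not tested. With a replicate block the counts were 4 in smooth muscle cells, 8 in fibroblasts and 1 in macrophages, and Pde5a in fibroblasts was 0.0640, against -0.07 without the block. Deviations of same-numbered libraries correlated at -0.0464 to 0.208, not every pair above 0.1. Libraries with different numbers were not compared, so these values cannot show whether the numbers pair the libraries. The label of flox control 2 gives another number than its name.

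Small genotype effects that missed the threshold changed sign when single libraries were left out. The log2 ranges in endothelial cells were -0.17 to 0.00295 for Cav1, -0.0920 to 0.59 for Ddah1, -0.30 to 0.0939 for Ddah2 and -0.65 to 0.0054 for Prkg1. In smooth muscle cells they were -0.0373 to 0.61 for Nos3 and -0.0559 to 0.26 for Pde5a, and in macrophages -0.56 to 0.82 for Cav1. In fibroblasts they were -0.20 to 0.0268 for Ddah2, -0.71 to 0.11 for Gch1, -0.20 to 0.0579 for Pde5a and -0.48 to 0.0322 for Prkg1. In the interaction they were -0.35 to 0.13 for Nos3 and -0.20 to 0.16 for Prkg1, which was 0.0576 with no filter. Pde5a in endothelial cells fell below the filter in 4 of 13 alternatives, among them the stricter gate and leaving out knockout 4. It kept its negative sign in the other 9. In the main fit it passed the filter only through the flox controls, which favours a negative sign. The kept sign is therefore a description. Depth limits Arg2 in endothelial cells, and the libraries with 58 and 59 endothelial cells give the least certain endothelial values.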
